A study of Mus musculus with 34 samples.

Results

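A group of 37 mouse genes known to be imprinted, all outside the Dlk1-Dio3 cluster, was followed in definitive endoderm (DE) and in the epiblast stem cells (EpiSC) from which it was made. The genes were chosen by name, and each had to be present in both tables of raw counts, as all 37 of the 37 listed were among 53655 genes. They lie at 18 loci, of which 10 hold 2 or more of the genes. By prior knowledge, 21 are expressed from the paternal copy, 9 from the maternal copy, and 7 show a parental bias limited to an isoform or a tissue. The counts do not separate the parental copies, so every value below is the sum of both.

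The study made 34 RNA-seq libraries from 18 cell lines of 7 inbred mouse strains, and 16 lines had a library of both cell types. The 17 DE libraries came from 4 lines of PWK/PhJ, 2 of NOD/ShiLtJ, 2 of NZO/HiLtJ, 2 of WSB/EiJ, 1 of CAST/EiJ, 1 of DBA/2J and 5 of C57BL/6J. The 17 EpiSC libraries came from 3 lines of PWK/PhJ, 2 of NOD/ShiLtJ, 2 of NZO/HiLtJ, 2 of WSB/EiJ, 2 of CAST/EiJ, 1 of DBA/2J and 5 of C57BL/6J (129S1/SvImJ was not analysed here). EpiSC, a primed pluripotent state, had been kept on irradiated mouse embryonic fibroblasts in medium holding FGF (12.5 ng/mL), activin (20 ng/mL) and the tankyrase inhibitor NVP (175 nM). DE was derived over 40 h: for 16 h activin (40 ng/mL) was combined with CHIR (3 uM), which inhibits GSK3, and for the next 24 h activin (100 ng/mL) was combined with LDN-193189 (100 nM), which blocks BMP receptors. Cells carrying CXCR4 at their surface were then sorted. Each library stands for 1 culture of a line, and p-values measure the spread between such libraries. DE libraries were made with a low-input amplification kit and EpiSC libraries with a stranded polyA kit, so kit and cell type cannot be told apart in any difference between them.

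Library totals were 23772045 to 67722013 counts in DE (median 27977897) and 25584647 to 33831684 counts in EpiSC (median 27701853). Marker genes were checked against the labelled cell types: 8 of 8 definitive endoderm markers were higher in DE, and 5 of the 7 pluripotency markers tested were lower there and 2 higher. Of all genes tested, 37.3% were called higher and 39.9% lower. Cxcr4, 1 of the 8, encodes the protein on which DE was sorted, so its call is not independent of the sort. Markers of fibroblasts, the cell type of the feeder layer, were present in both: summed over 15 genes they had 116.3 to 1665 CPM (a gene's counts scaled to a common library total) in DE and 148.1 to 4821 CPM in EpiSC. In the fit between cell types 14 of the 15 were lower in DE and 1 higher. A DE library had 0 to 5 of these markers at 0, and an EpiSC library 0 to 1. Fewer cells of a type and less RNA per cell cannot be told apart in such bulk libraries. The summed level of 4 Y-linked genes, used below as the Y-linked covariate, was also uneven. It was 2.62 to 8.27 log2 CPM in DE (median 7.86) and 5.41 to 8.32 log2 CPM in EpiSC (median 7.82). The lowest were PWK/PhJ line AC699 in DE (2.62) and C57BL/6J line 44 in EpiSC (5.41).

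In genomic imprinting, one parental copy of a gene carries DNA methylation laid down in the egg or sperm at a differentially methylated region, and that mark survives the wave of demethylation after fertilisation. Zinc finger proteins such as ZFP57 and ZFP445 bind methylated copies of these regions and recruit TRIM28, which keeps the mark in place, while the maintenance methyltransferase DNMT1 copies it at each division. Some loci are controlled through a long noncoding RNA transcribed from the unmethylated copy, such as Kcnq1ot1 and Airn, which silences its neighbours on the same chromosome. Many imprinted genes act on fetal and placental growth, and their dosage is known to drift in cultured pluripotent cells.

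Promoter sequences (RefSeq, GRCm38.p6, 250 bases before to 50 bases after the start) were on hand for 29 of the 37 genes. The first 4 shown belong to genes described at length in the results that follow, Ascl2 and Kcnq1ot1 between cell types and Mest and Zrsr1 also between strains. Ascl2, at chr7:142969215-142969514 on the minus strand, holds 23 CpG pairs. Kcnq1ot1, at chr7:143296498-143296797 on the minus strand and inside the Kcnq1 gene, holds 9. One of the 3 listed Mest starts, at chr6:30737800-30738099 on the plus strand, holds 17. Zrsr1, at chr11:22971755-22972054 on the plus strand and inside Commd1, which runs on the other strand, holds 10. The last one, for Peg3 at chr7:6730370-6730669 on the minus strand, is shown because Usp29 starts from the same stretch in the other direction. In the first 4 sequences capitals mark CG pairs, and in the Peg3 sequence they mark the 263 bases that also lie in the Usp29 window (chr7:6730333-6730632, plus strand).
Ascl2: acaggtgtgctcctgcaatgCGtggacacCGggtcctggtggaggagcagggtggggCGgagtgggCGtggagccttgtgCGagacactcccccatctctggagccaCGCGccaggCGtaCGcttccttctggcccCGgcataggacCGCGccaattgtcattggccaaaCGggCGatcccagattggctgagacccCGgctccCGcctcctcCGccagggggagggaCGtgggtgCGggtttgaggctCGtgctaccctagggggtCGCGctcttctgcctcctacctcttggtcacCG
Kcnq1ot1: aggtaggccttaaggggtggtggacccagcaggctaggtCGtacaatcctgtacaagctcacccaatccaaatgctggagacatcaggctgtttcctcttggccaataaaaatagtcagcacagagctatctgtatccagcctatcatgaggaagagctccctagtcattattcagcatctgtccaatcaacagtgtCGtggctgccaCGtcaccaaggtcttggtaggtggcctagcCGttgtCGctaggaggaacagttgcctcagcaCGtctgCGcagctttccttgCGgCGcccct
Mest: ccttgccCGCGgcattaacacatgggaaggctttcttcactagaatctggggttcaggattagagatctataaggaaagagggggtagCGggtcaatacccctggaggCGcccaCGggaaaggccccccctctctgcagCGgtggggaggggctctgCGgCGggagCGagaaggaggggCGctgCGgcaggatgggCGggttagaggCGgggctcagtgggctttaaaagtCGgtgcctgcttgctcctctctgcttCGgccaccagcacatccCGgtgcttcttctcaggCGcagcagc
Zrsr1: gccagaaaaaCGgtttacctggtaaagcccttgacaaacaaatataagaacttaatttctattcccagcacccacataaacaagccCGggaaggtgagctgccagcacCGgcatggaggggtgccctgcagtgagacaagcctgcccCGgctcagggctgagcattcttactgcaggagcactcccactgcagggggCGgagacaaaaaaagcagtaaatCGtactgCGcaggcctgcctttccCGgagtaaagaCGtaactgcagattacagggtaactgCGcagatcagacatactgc
Peg3: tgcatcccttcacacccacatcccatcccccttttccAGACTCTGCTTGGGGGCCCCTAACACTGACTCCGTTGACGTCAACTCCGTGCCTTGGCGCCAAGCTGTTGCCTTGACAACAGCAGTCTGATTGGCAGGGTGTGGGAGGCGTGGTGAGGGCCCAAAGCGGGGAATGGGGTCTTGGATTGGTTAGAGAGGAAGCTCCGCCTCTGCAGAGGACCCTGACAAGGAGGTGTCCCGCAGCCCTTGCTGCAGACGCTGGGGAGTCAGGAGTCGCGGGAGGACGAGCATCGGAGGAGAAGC

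Across the 42 promoters of these 29 genes the median was 17 CpG pairs, against 7 over all 32851 mouse promoters of the same length in that set. The hexamer TGCCGC, which contains the core bound by ZFP57, was searched on both strands. It was present in 11 of the 42 promoters (26.2%), against 11.6% of all promoters. Overlapping Mest windows, starting at 30737800 and 30737803, are both among the 11. The hexamer holds a CG pair, and these promoters are richer in CG pairs and in G and C (median 58.0%, against 52.7%). Whether the share exceeds what this composition gives was not tested. The Mest window held 2 matches, and the windows of Ascl2, Kcnq1ot1, Zrsr1, Peg3 and Usp29 held 0. A match is a description of the letters in a window, not a bound site.

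Between DE and EpiSC, most of the imprinted genes differed, and they did so in both directions. Ascl2, Kcnq1ot1, Mest, Grb10 and H13 stood much higher in DE, while Magel2, H19, Peg10, Peg13, Plagl1 and Igf2r stood much lower. By edgeR's quasi-likelihood F test with strain as a term and Benjamini-Hochberg adjustment over all genes, 31 of 37 passed an adjusted p of 0.05, 16 higher and 15 lower in DE. Over all 20907 genes tested the share was 77.2% (37.3% higher, 39.9% lower), so a count of this size is near the background. With a 2-fold minimum, 11 were higher and 9 lower, beside 50.4% of all genes (22.5% higher, 27.9% lower). Libraries of the 2 cell types did not overlap for 9 of the 37 genes (4 higher, 5 lower), beside 18.7% of all genes (8.56% higher, 10.1% lower). The median difference was -0.13 on the log2 scale for the imprinted genes and -0.06 for all genes tested.

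Per kilobase of exon, the order of levels also differed between the cell types. In DE the highest medians were those of Mest (133 CPM per kb), Grb10 (102), Snrpn (38.8) and Peg3 (37.5 CPM per kb). In EpiSC they were those of Snrpn (75.3 CPM per kb), Impact (40.3), Igf2r (39.0) and Grb10 (37.7 CPM per kb). Single libraries of Mest in DE ranged from 14.3 to 458 CPM per kb, so the top places of the order lie within the spread between lines. At the low end, 5 genes (Kcnq1, Airn, Zim1, Nap1l5 and Rasgrf1) had a mean log2 CPM under 1 in both cell types.

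**Figure D1:**
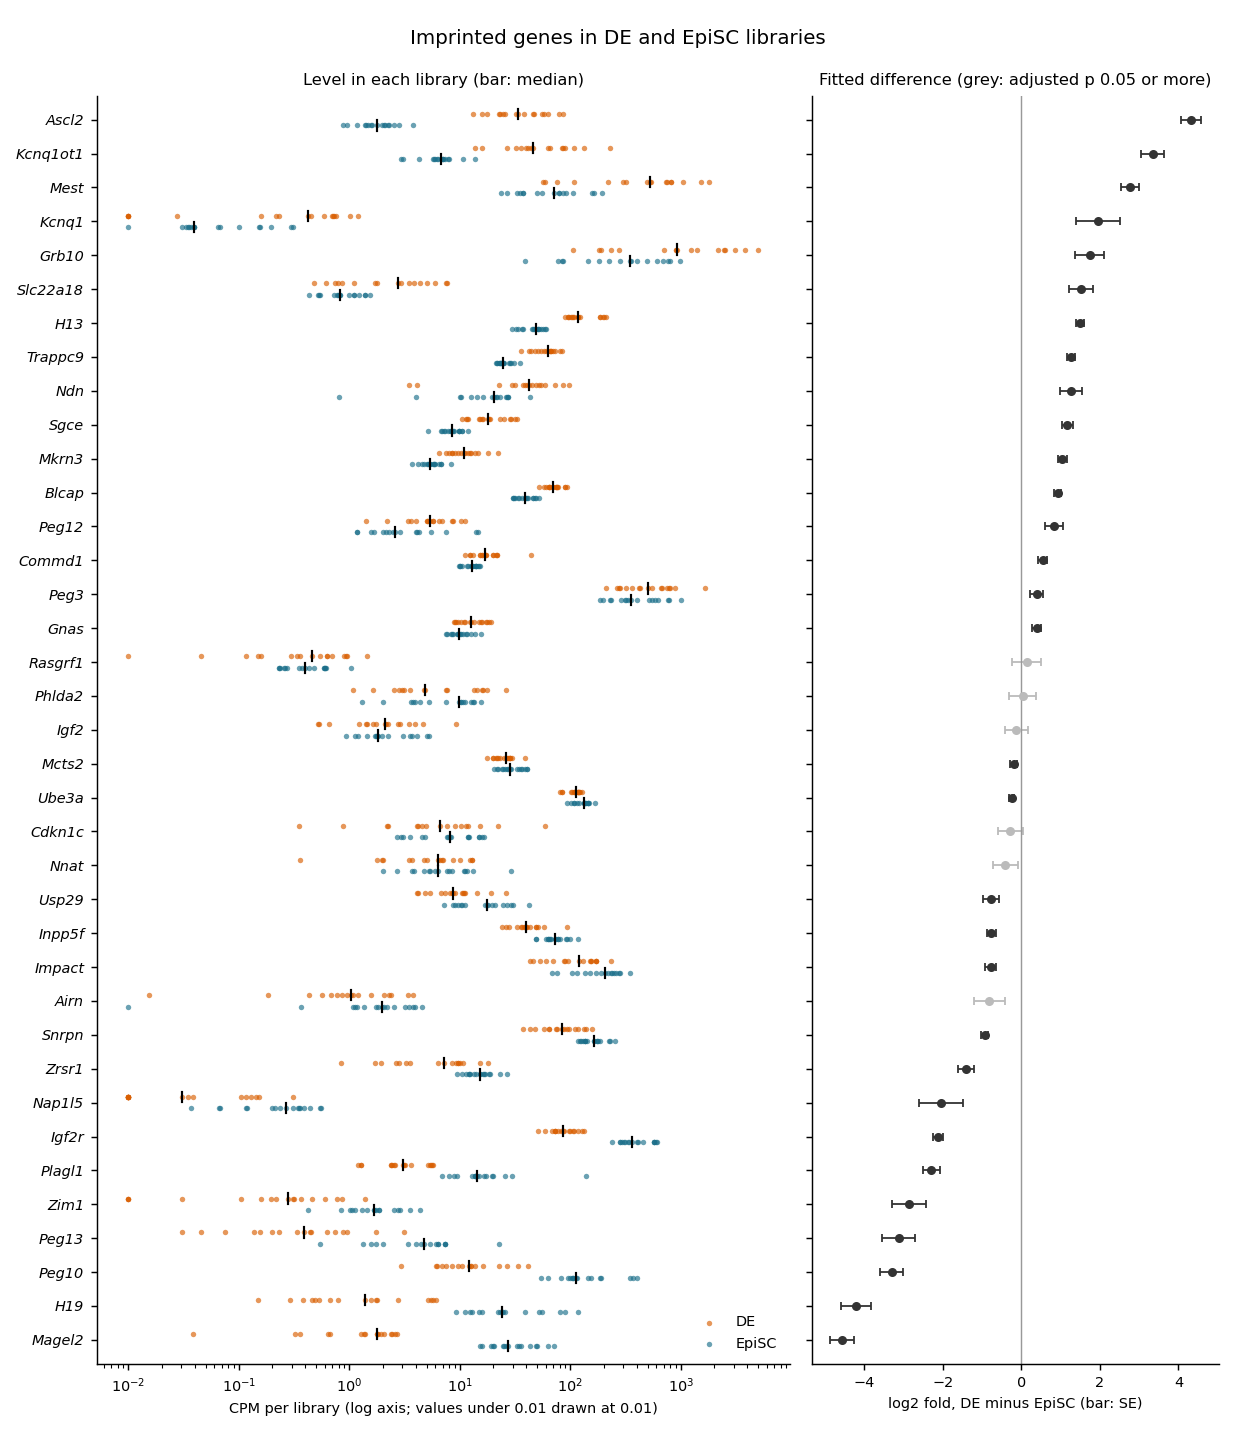
Level of each of the 37 imprinted genes in every library (left; CPM on a log axis, 17 DE libraries above 17 EpiSC libraries for each gene, bar at the median) and the fitted log2 fold of DE minus EpiSC with its standard error (right; grey where the adjusted p is 0.05 or more). Points of the 2 cell types do not overlap for 9 of the 37 genes, among them Ascl2 and Magel2, beside 18.7% of all genes tested.

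Among the genes higher in DE, 4 lie in the Kcnq1 cluster on chromosome 7. Ascl2, which encodes a basic helix-loop-helix factor needed for the trophoblast lineage and is also a Wnt target, had a lowest, median and highest level of 13.1, 33.5 and 86.6 CPM in DE, against 0.885, 1.77 and 3.77 CPM in EpiSC. No EpiSC library reached the lowest DE library, and the fitted difference was 4.32 ± 0.25 (log2, SE; adjusted p = 3.26e-16, edgeR). Of 7 tested trophoblast markers, 5 were also higher in DE and 2 lower, with a mean over the list of -0.52 to 1.22 log2 CPM in DE and -1.88 to 0.74 log2 CPM in EpiSC; their part in the Ascl2 difference was not tested. Kcnq1ot1, the long noncoding RNA that silences the paternal copy of this cluster, had 13.8, 45.9 and 226 CPM in DE, against 2.93, 6.77 and 13.7 CPM in EpiSC (lowest, median and highest). The difference was 3.34 ± 0.30 (adjusted p = 2.44e-11, edgeR), the ranges did not overlap, and Kcnq1ot1 was higher in DE in all 16 lines with both libraries. Kcnq1ot1 runs antisense through Kcnq1, and whether reads were counted by strand is not given in the sources used here, so reads of the 2 genes may be mixed.

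Other members of the cluster did not all follow. Slc22a18, an organic cation transporter-like gene, had a mean of 3.03 ± 2.38 CPM in DE and 0.913 ± 0.335 CPM in EpiSC (SD, n = 17 each), a difference of 1.52 ± 0.31 (adjusted p = 6.24e-05, edgeR) that was 1.39 with the fibroblast covariate described below (adjusted p = 0.0511, edgeR). Cdkn1c, the growth-restraining CDK inhibitor p57, had 0.353 to 59.5 CPM in DE and 2.68 to 16.5 CPM in EpiSC, and its difference of -0.28 ± 0.33 did not pass (adjusted p = 0.44, edgeR). Phlda2, a pleckstrin-homology protein that limits placental growth, differed by 0.03 ± 0.35 (adjusted p = 0.935, edgeR). Of the 6 listed genes of this cluster, 4 were called higher in DE and 0 lower, and 2 (Cdkn1c and Phlda2) did not pass.

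Mest, an alpha/beta-hydrolase-fold protein of the mesoderm and a growth regulator, had 56.3, 526.0 and 1805 CPM in DE, against 23.4, 71.8 and 192 CPM in EpiSC (lowest, median and highest). It was higher in DE in all 16 lines, by 2.77 ± 0.23 (adjusted p = 5.03e-12, edgeR), although the lowest DE libraries, those of PWK/PhJ, lay within the EpiSC range. Grb10, a maternally expressed adaptor that dampens insulin and IGF receptor signalling, had 106.5, 928 and 5017 CPM in DE, against 39.1, 343 and 987 CPM in EpiSC. The difference was 1.74 ± 0.37 (adjusted p = 0.000109, edgeR) and 14 of 16 lines were higher in DE. With the mean log2 CPM of the 15 fibroblast markers as a covariate, it was 0.11 (adjusted p = 0.876, edgeR). That covariate itself differed between the cell types, with a median of 2.22 in DE and 5.37 in EpiSC. A fit holding both cannot fully separate cell type from fibroblast level. The same limit holds for every DE minus EpiSC value given with this covariate.

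H13, a signal peptide peptidase, and Trappc9, a vesicle-tethering subunit, are host genes in which an imprinted transcript lies. H13 averaged 132 ± 43.5 CPM in DE and 46.4 ± 9.45 CPM in EpiSC (SD, n = 17 each), a difference of 1.5 ± 0.10 (adjusted p = 1.59e-14, edgeR). Trappc9 averaged 60.2 ± 13.1 CPM in DE and 25.3 ± 3.67 CPM in EpiSC, a difference of 1.27 ± 0.10 (adjusted p = 7.81e-13, edgeR). Neither gene's DE and EpiSC ranges overlapped. The transcripts inside them went the other way: Peg13, a paternally expressed noncoding RNA within Trappc9, had 0.0303, 0.391 and 3.09 CPM in DE, against 0.539, 4.73 and 22.5 CPM in EpiSC, a difference of -3.13 ± 0.41 (adjusted p = 4.8e-08, edgeR) that was -1.71 with the fibroblast covariate (adjusted p = 0.0661, edgeR). The difference of Mcts2, a retrocopy of the X-linked Mcts1 within H13, was -0.20 ± 0.09 (adjusted p = 0.0449, edgeR) and lost its call when any of 22 single libraries was left out. Peg13 and Mcts2 lie on the same strand as their hosts, and Mcts2 resembles its parent gene, so reads may be shared.

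Magel2, a MAGE-family gene of the region lost in human Prader-Willi syndrome, showed the largest fall among the 37. It had 0.0385, 1.78 and 2.68 CPM in DE, against 15.4, 27.5 and 70.6 CPM in EpiSC (lowest, median and highest), and the fitted difference was -4.57 ± 0.30 (adjusted p = 6.75e-15, edgeR). Its neighbours on chromosome 7 were split. Snrpn, which encodes the splicing protein SmN, was lower in DE by -0.93 ± 0.09 (87.0 ± 34.7 CPM in DE and 164 ± 40.3 CPM in EpiSC), and Ube3a, a ubiquitin ligase imprinted in neurons, by -0.25 ± 0.07. Ndn, the MAGE-family growth suppressor necdin, was higher in DE by 1.26 ± 0.29 (adjusted p = 0.000289, edgeR), as were the makorin Mkrn3 (1.04 ± 0.12) and the GSK3-binding Peg12 (0.83 ± 0.24). Within this 1 cluster, 3 genes were thus higher and 3 lower in DE.

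H19, a maternally expressed noncoding RNA abundant in fetal tissue, fell to 0.150, 1.4 and 6.08 CPM in DE, against 9.21, 24.2 and 118 CPM in EpiSC (lowest, median and highest). The difference was -4.21 ± 0.39 (adjusted p = 5.67e-11, edgeR), with no overlap. Igf2, the fetal growth factor reciprocally imprinted with H19, was low in both cell types, at 2.5 ± 2.08 CPM in DE and 2.49 ± 1.35 CPM in EpiSC, and did not pass (adjusted p = 0.698, edgeR). Igf2r, the receptor that clears IGF2 to the lysosome, fell to 50.9, 86.3 and 134 CPM in DE, against 238, 363 and 603 CPM in EpiSC, a difference of -2.13 ± 0.13 (adjusted p = 3.12e-15, edgeR). Airn, the noncoding RNA antisense to Igf2r that silences its paternal copy, had 0.0153 to 3.78 CPM in DE and 0 to 4.59 CPM in EpiSC, and its difference of -0.82 ± 0.40 did not pass (adjusted p = 0.0625, edgeR). That result is unstable: Airn passed with DESeq2 (adjusted p = 0.0304) and without any 1 of 6 libraries (DE lines 2, AC576 and AC705, and EpiSC lines 1, AC576 and AC627; -0.94 to -0.89, adjusted p = 0.0233 to 0.0494, edgeR). With the fibroblast covariate the difference was 1.49 (adjusted p = 0.0646, edgeR). The same doubt on strand holds for this pair as for Kcnq1 and Kcnq1ot1.

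Peg10, a retrotransposon-derived gene essential for the placenta, had 2.92, 12.2 and 41.5 CPM in DE, against 54.6, 112 and 404 CPM in EpiSC, a difference of -3.31 ± 0.30 (adjusted p = 3.82e-11, edgeR). Sgce, the epsilon-sarcoglycan gene that starts next to it on the opposite strand, was higher in DE by 1.17 ± 0.15 (adjusted p = 1.98e-08, edgeR), so this divergent pair moved apart. Plagl1, a zinc finger transcription factor that restrains growth, had 1.19, 3.09 and 5.76 CPM in DE, against 6.91, 14.3 and 138 CPM in EpiSC, a difference of -2.30 ± 0.22 (adjusted p = 6.37e-11, edgeR). The 138 CPM belonged to the single DBA/2J line, and the next highest EpiSC library had 29.4 CPM.

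Peg3 and Usp29 leave their shared promoter in opposite directions, as printed above, and are both expressed from the paternal copy. Usp29, a ubiquitin-specific protease gene, averaged 9.97 ± 5.67 CPM in DE and 18.4 ± 9.71 CPM in EpiSC (SD, n = 17 each), a difference of -0.77 ± 0.21 (adjusted p = 0.00132, edgeR) that was -1.37 with the fibroblast covariate (adjusted p = 0.00167, edgeR). Peg3, a zinc finger protein of maternal care and growth, averaged 577 ± 351 CPM in DE and 450 ± 237 CPM in EpiSC, a difference of 0.39 ± 0.16 (adjusted p = 0.0295, edgeR). The Peg3 call was lost without any 1 of 7 libraries (DE lines 5-1, AC627 and 55, and EpiSC lines 2, AC627, AC635 and 44; adjusted p = 0.0504 to 0.0664, edgeR), and with the fibroblast covariate the difference was -0.16 (adjusted p = 0.657, edgeR).

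Seen by locus, 6 of the 10 loci with 2 or more of the genes held members that moved in both directions: H13-Mcts2, Peg10-Sgce, Peg13-Trappc9, Peg3, Snrpn-Ube3a and Zrsr1-Commd1. Over all genes 77.2% were called, in nearly equal numbers each way, so nothing particular to these loci is read from that count. H13-Mcts2 and Peg3 are among them only through the unstable calls of Mcts2 and Peg3. With the fibroblast covariate 3 did (Peg10-Sgce, Snrpn-Ube3a and Zrsr1-Commd1). In the last of these, Zrsr1, a retrocopy of the splicing factor gene Zrsr2 that may share reads with it, was lower in DE by -1.42 ± 0.20, and its host Commd1, a copper and NF-kappaB regulator, was higher by 0.54 ± 0.12. By parental copy, 7 of the 21 paternally expressed genes were called higher and 10 lower, and 4 of the 9 maternally expressed genes were called higher and 3 lower, beside 37.3% higher and 39.9% lower of all genes. The difference between the classes was not tested. A total of 16 genes had the same direction in all 16 lines, 8 higher and 8 lower in DE, beside 35.7% of all genes tested (17% higher, 18.6% lower). With the fibroblast covariate, 8 calls no longer passed (Grb10, Kcnq1, Mcts2, Nap1l5, Peg12, Peg13, Peg3 and Slc22a18), though the differences of Peg12 and Kcnq1 were then 1.0 and 1.5, against 0.83 and 1.95 without the covariate. With it the Magel2 difference was -3.85, the Kcnq1ot1 difference 2.59 and the Ndn difference 2.99.

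A list of DNA methylation and chromatin factors was also examined, holding imprint keepers, de novo methyltransferases, the TET oxidases and Polycomb subunits. Of its 19 tested genes, 14 were called lower and 2 higher in DE, with a median difference of -0.89 (log2). All genes tested had 39.9% lower and 37.3% higher, with a median of -0.06, and the list itself was not tested. Zfp57 differed by -1.42 ± 0.13, Zfp445 by -1.91 ± 0.12 and their co-repressor Trim28 by -1.58 ± 0.09. Among enzymes, the maintenance methyltransferase Dnmt1 differed by -0.96 ± 0.07, the de novo methyltransferase Dnmt3a by -2.32 ± 0.17 and the 5-methylcytosine oxidase Tet1 by -2.75 ± 0.13, while Tet2 was higher by 1.08 ± 0.17. In the IGF pathway, in which Igf2, Igf2r and Grb10 act, 9 of 13 listed genes were called lower and 4 higher, beside 39.9% lower and 37.3% higher of all genes; the list itself was not tested. The receptor Igf1r differed by -2.33 ± 0.13, the docking protein Irs1 by -3.91 ± 0.31 and the binding protein Igfbp5 by -3.67 ± 0.38, while Igfbp2 was higher by 2.95 ± 0.12 (edgeR throughout). Igf1, Igfbp3, Igfbp5 and Igfbp6, all called lower, are also expressed by fibroblasts, whose markers were lower in DE for 14 of 15, and their part in the IGF counts was not tested. Zfp57, Trim28, Dnmt1, Tet2 and Igf1r are given for their roles and the others for the size of their difference.

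Differences between strains were tested within each cell type over 5 strains, each having at least 2 lines in DE and in EpiSC. In EpiSC 14 of 36 tested imprinted genes passed edgeR's quasi-likelihood F test, beside 40% of all genes. In DE 8 of 36 passed, beside 22.3% of all genes, so neither share exceeds the background. In both cell types Zrsr1, Impact, Snrpn, Mest, Grb10 and Peg3 differed between strains. The calls of Zrsr1, Impact, Snrpn and Mest were kept under each alternative run, leaving out any single library included. Adjusted p values in DE were 0.000365 for Zrsr1, 0.00219 for Impact, 0.00688 for Snrpn and 0.000261 for Mest (edgeR). In EpiSC they were 0.000227, 0.00368, 0.000246 and 0.0011 in the same gene order (edgeR). Grb10 had 0.0132 in DE and 0.000545 in EpiSC, and Peg3 had 0.0108 in DE and 0.026 in EpiSC (edgeR). With the fibroblast covariate Grb10 no longer passed in DE. Lines of a strain differed among themselves: over the imprinted genes the median SD of log2 CPM within strains was 0.67 in DE and 0.44 in EpiSC, beside 0.51 in DE and 0.28 in EpiSC for all genes.

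**Figure D2:**
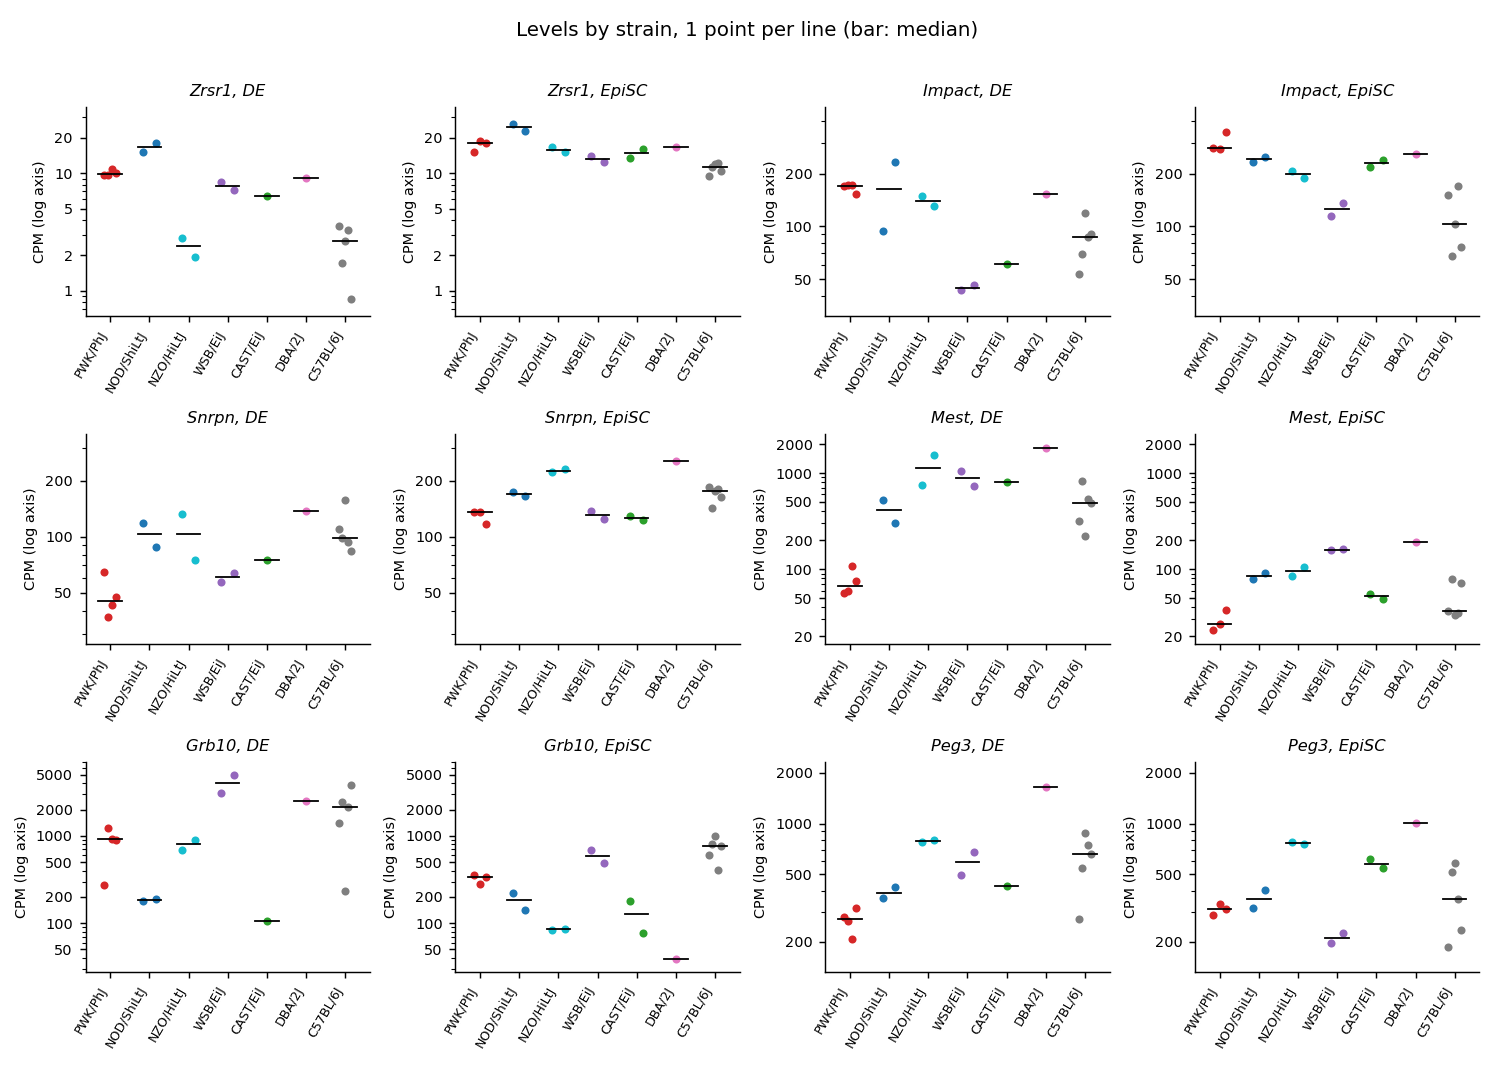
CPM (log axis) of Zrsr1, Impact, Snrpn, Mest, Grb10 and Peg3 by strain in DE and in EpiSC, 1 point per line with a bar at the median; each gene has the same scale in both cell types. Zrsr1 in DE lies lowest in C57BL/6J and NZO/HiLtJ, and Mest lies lowest in PWK/PhJ in both cell types.

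Zrsr1 was low in C57BL/6J, with NZO/HiLtJ beside it in DE. In DE it had 9.58, 10.8, 9.69 and 10.0 CPM in PWK/PhJ lines and 18.1 and 15.2 CPM in NOD/ShiLtJ lines, against 0.849, 3.52, 1.72, 3.28 and 2.65 CPM in C57BL/6J lines. Those groups did not overlap, and the differences from C57BL/6J were 2.13 ± 0.34 for PWK/PhJ (adjusted p = 0.000487, edgeR) and 2.90 ± 0.39 for NOD/ShiLtJ (adjusted p = 0.00047, edgeR). In PWK/PhJ the call was kept under each alternative run, while in NOD/ShiLtJ the difference was 1.74 with the fibroblast covariate and the call was lost (adjusted p = 0.223, edgeR). In EpiSC the same strains stood closer: 15.2, 18.2 and 18.9 CPM in PWK/PhJ and 26.5 and 23.1 CPM in NOD/ShiLtJ, against 12.0, 9.49, 10.4, 11.4 and 12.2 CPM in C57BL/6J. The EpiSC differences were 0.65 ± 0.12 for PWK/PhJ (adjusted p = 0.00137, edgeR) and 1.17 ± 0.14 for NOD/ShiLtJ (adjusted p = 0.000144, edgeR). WSB/EiJ lines had 7.20 and 8.42 CPM in DE, a difference of 1.71 ± 0.39 whose call (adjusted p = 0.0311, edgeR) was lost without either WSB/EiJ line, C57BL/6J line 44 or PWK/PhJ line AC698 (adjusted p = 0.052 to 0.28, edgeR). It was also lost with the fibroblast covariate (1.43, adjusted p = 0.0686) and with the Y-linked covariate (1.72, adjusted p = 0.059, edgeR). NZO/HiLtJ lines had 1.95 and 2.83 CPM in DE, within the C57BL/6J range.

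Whether the strain pattern itself differs between cell types was tested by the interaction of strain and cell type. Zrsr1 passed (adjusted p = 0.00463, edgeR) and kept its call without any single library. Zrsr1 was lower in DE in all 16 lines with both libraries, and the size of the fall differed. Relative to C57BL/6J, its DE minus EpiSC difference was less negative by 1.73 in NOD/ShiLtJ, 1.5 in PWK/PhJ and 1.46 in WSB/EiJ (log2). In NZO/HiLtJ it differed by -0.50, a larger fall. Mean levels in EpiSC and DE were 11.1 and 2.41 CPM in C57BL/6J, against 24.8 and 16.7 CPM in NOD/ShiLtJ. Inpp5f, an inositol phosphatase gene with an imprinted brain transcript, also passed (adjusted p = 0.0213, edgeR). Its call was lost without the PWK/PhJ library of line AC705 in DE (adjusted p = 0.0594), of AC705 in EpiSC (0.0577) or of AC698 in EpiSC (0.101, edgeR). These 2 of 37 genes compare with 9.28% of all genes. With the cell line as a block, 5 passed, with Grb10 (adjusted p = 0.0293), Mest (0.0252) and Peg3 (0.0439, edgeR) added. The share of all genes under the block is not given here.

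Impact, which encodes an inhibitor of the stress kinase GCN2, was highest in PWK/PhJ EpiSC. It had 279, 345 and 275 CPM there, against 103, 150.4, 76.0, 67.5 and 169 CPM in C57BL/6J EpiSC, a difference of 1.41 ± 0.24 (adjusted p = 0.000849, edgeR). In DE it had 171, 172, 169 and 153 CPM in PWK/PhJ, against 89.9, 53.3, 69.4, 86.9 and 119 CPM in C57BL/6J, a difference of 1.06 ± 0.24 (adjusted p = 0.00696, edgeR). In both cell types the groups did not overlap. WSB/EiJ DE lines, at 45.9 and 43.0 CPM, were the lowest for Impact in DE.

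Snrpn ran the other way in PWK/PhJ. It had 37.1, 42.8, 64.3 and 47.4 CPM in PWK/PhJ DE, against 83.8, 110.3, 98.1, 93.3 and 156 CPM in C57BL/6J DE, a difference of -1.11 ± 0.22 (adjusted p = 0.00255, edgeR). In EpiSC the difference was -0.38 ± 0.08 (129 ± 11.4 CPM in PWK/PhJ, n = 3, and 169 ± 16.6 CPM in C57BL/6J, n = 5, SD; adjusted p = 0.0037, edgeR). Mest in DE had 59.4, 109, 56.3 and 75.3 CPM in PWK/PhJ, against 488, 318, 822, 536 and 221 CPM in C57BL/6J. Every PWK/PhJ library was lower than every C57BL/6J library, by -2.62 ± 0.39 on average (adjusted p = 0.000281, edgeR). In EpiSC, Mest had 23.4, 37.5 and 26.9 CPM in PWK/PhJ lines and 156 and 164 CPM in WSB/EiJ lines, against 33.2, 37.01, 71.8, 78.3 and 35.3 CPM in C57BL/6J lines. In the EpiSC contrasts of Mest, edgeR called the WSB/EiJ difference (1.63 ± 0.30, adjusted p = 0.00539), which was lost without WSB/EiJ line AC635 (adjusted p = 0.0515, edgeR). DESeq2 called it too, and also called PWK/PhJ (-0.79, adjusted p = 0.0184) and NZO/HiLtJ (0.92, adjusted p = 0.0399).

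Grb10 varied more in level than the other strain-dependent genes. In EpiSC it had 83.7 and 85.9 CPM in NZO/HiLtJ, 76.8 and 180.1 CPM in CAST/EiJ and 224 and 144 CPM in NOD/ShiLtJ, against 987, 612, 758, 805 and 404 CPM in C57BL/6J. None of these 3 strains overlapped with C57BL/6J, and the differences were -3.08 ± 0.43 for NZO/HiLtJ (adjusted p = 0.00121, edgeR), -2.47 ± 0.41 for CAST/EiJ (adjusted p = 0.000727, edgeR) and -1.95 ± 0.40 for NOD/ShiLtJ (adjusted p = 0.00859, edgeR). The NZO/HiLtJ and CAST/EiJ calls were kept without any single library, and the NOD/ShiLtJ call was lost without line AC595 (adjusted p = 0.0722, edgeR); the CAST/EiJ difference was -3.23 without line WM080. In DE, Grb10 had 188 and 182 CPM in NOD/ShiLtJ, against 3840, 1390, 2457, 2147 and 235 CPM in C57BL/6J, a difference of -3.36 ± 0.84 (adjusted p = 0.0174, edgeR) that was lost without either NOD/ShiLtJ line (adjusted p = 0.114 and 0.193, edgeR). The single DBA/2J line had 2498 CPM in DE and 39.1 CPM in EpiSC, the lowest EpiSC value of Grb10.

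Across the strain contrasts, which all share the C57BL/6J libraries, the counts of called imprinted genes stayed close to the share of all genes in most. In PWK/PhJ DE, 3 were higher and 4 lower of 36 tested, beside 17.1% of all genes (9.66% higher, 7.47% lower). In NOD/ShiLtJ DE, 5 were higher and 1 lower, beside 11.4% of all genes (7.98% higher, 3.38% lower). In WSB/EiJ DE, 1 was higher and 0 lower, beside 2.28% of all genes (1.19% higher, 1.09% lower), and in NZO/HiLtJ DE there were 0, beside 1.41% (0.918% higher, 0.492% lower). The PWK/PhJ calls in DE were of 7 of the 20 paternally expressed genes tested and 0 of the 9 maternally expressed ones, and in EpiSC of 5 of 21 and 4 of 8; the difference was not tested. In PWK/PhJ EpiSC, 7 were higher and 4 lower of 36 tested, beside 29.8% of all genes (13.7% higher, 16.1% lower). In CAST/EiJ EpiSC, 8 were higher and 3 lower, beside 31.6% (14.5% higher, 17.1% lower). The other EpiSC contrasts held fewer calls. In NOD/ShiLtJ EpiSC, 4 were higher and 1 lower, beside 12.9% (5.98% higher, 6.94% lower). In NZO/HiLtJ EpiSC, 3 were higher and 1 lower, beside 5.52% (2.7% higher, 2.82% lower). In WSB/EiJ EpiSC, 1 was higher and 1 lower, beside 7.41% (3.45% higher, 3.96% lower). For NZO/HiLtJ in DE edgeR's 0 stands beside 8 genes with an unadjusted p under 0.05, and DESeq2 also called 0. The share of all genes at that unadjusted p is not given here, so nothing particular to the imprinted genes is read from the 8. Reads of all strains had been aligned to the C57BL/6J assembly, and the part of sequence divergence in these contrasts was not tested.

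Other strain-dependent genes were seen in 1 contrast each or a few. Phlda2 in EpiSC had 2.01 and 1.31 CPM in CAST/EiJ and 3.62, 4.38 and 5.27 CPM in PWK/PhJ, against 7.47, 12.5, 10.2, 13.5 and 13.2 CPM in C57BL/6J. The differences were -2.77 ± 0.42 for CAST/EiJ (adjusted p = 0.000242, edgeR) and -1.36 ± 0.32 for PWK/PhJ (adjusted p = 0.00585, edgeR), with no overlap in either. Plagl1 in EpiSC had 25.6 and 29.4 CPM in CAST/EiJ, against 9.39, 7.99, 6.91, 13.6 and 15.1 CPM in C57BL/6J, a difference of 1.38 ± 0.26 (adjusted p = 0.0013, edgeR). H19 in EpiSC had 80.9 and 118 CPM in CAST/EiJ, against 12.8 to 38.5 CPM in C57BL/6J, a difference of 2.12 ± 0.58 (adjusted p = 0.0159, edgeR) that was lost without line WM080 (adjusted p = 0.128, edgeR) and with the fibroblast covariate (1.69, adjusted p = 0.0822, edgeR). CAST/EiJ EpiSC lines also differed from C57BL/6J EpiSC in markers. Of 8 definitive endoderm markers 6 were higher and 0 lower, and 2 of 4 trophoblast markers (Cdx2 and Krt7) were higher. Of 7 pluripotency markers 2 were higher (Fgf5 and Otx2) and 3 lower (Pou5f1, Fgf4 and Dnmt3b), and 3 of 6 neuroectoderm markers were lower (Nes, Pax6 and Tubb3). Of 6 mesoderm markers 1 was higher (Pdgfra, also the 1 of 15 fibroblast markers called) and 2 lower (Kdr and Tbx6), and 0 of 6 extraembryonic endoderm markers were called. The part of these markers in the imprinted differences was not tested. Peg10 in EpiSC had 404 and 344 CPM in NZO/HiLtJ, against 54.6 to 188 CPM in C57BL/6J, a difference of 1.74 ± 0.39 (adjusted p = 0.0249, edgeR) lost without NZO/HiLtJ line AC653 (adjusted p = 0.229), NZO/HiLtJ line AC671 (0.131) or C57BL/6J line 44 (0.0529, edgeR).

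In NOD/ShiLtJ DE the imprinted differences came with other marker differences. Of 14 tested fibroblast markers 12 were raised over C57BL/6J DE and 0 lowered, and 6 of 8 definitive endoderm markers were lower. Of the other lists, 3 of 7 mesoderm markers (Kdr, Mesp1 and Mesp2) and 2 of 4 neuroectoderm markers (Nes and Tubb3) were higher, and of 7 pluripotency markers 2 were higher (Pou5f1 and Fgf4) and 3 lower. Also higher were 1 of 6 trophoblast markers (Hand1) and 1 of 6 extraembryonic endoderm markers (Dab2). Of 13 IGF pathway genes 4 were higher and 1 lower. Of 19 tested methylation and chromatin factors, 3 were lower (Ctcf, Dnmt3b and Smchd1) and 0 higher. The part of these markers and lists in the imprinted differences was not tested. The summed fibroblast level was 1665 and 1347 CPM in NOD/ShiLtJ DE, against 157 to 364 CPM in C57BL/6J DE. As mean log2 CPM the NOD/ShiLtJ lines had 4.68 and 4.78, and the next highest DE library, of CAST/EiJ, had 3.49. The covariate therefore cannot separate strain from fibroblast level in this contrast. With the fibroblast covariate none of the 6 calls passed in edgeR: the Zrsr1 difference was then 1.74 (adjusted p = 0.223) and the Grb10 difference -1.61 (adjusted p = 0.502, edgeR). Cdkn1c had 59.5 and 15.1 CPM in NOD/ShiLtJ DE, against 0.353 to 10.2 CPM in C57BL/6J DE, a difference of 3.07 ± 0.79 (adjusted p = 0.0207, edgeR) that was 1.7 without line AC576 (adjusted p = 0.494, edgeR).

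In PWK/PhJ DE, 2 of 14 fibroblast markers and 0 of 8 definitive endoderm markers were called against C57BL/6J DE, the 2 fibroblast markers as higher. Of 6 extraembryonic endoderm markers 3 were lower (Amn by -5.2, Apoa2 by -3.76 and Rbp4 by -2.87) and 1 higher (Dab2, 1.42). Of 7 pluripotency markers 1 was higher (Nanog, 2.0) and 2 lower (Dnmt3b by -1.56 and Fgf5 by -0.60). The mesoderm marker Kdr (5.34), the neuroectoderm marker Nes (1.64) and the trophoblast marker Elf5 (2.04) were also higher. Of the imprint-maintenance and chromatin list, Zfp57 (-1.30), Dnmt3b and Ezh2 (-0.88) were lower. Zfp57 was also called lower in EpiSC of PWK/PhJ (-1.05), NOD/ShiLtJ (-0.85) and CAST/EiJ (-0.62). Dnmt3b was also called lower in NOD/ShiLtJ DE (-1.39) and CAST/EiJ EpiSC (-0.58). The part of the PWK/PhJ DE marker and list differences in those of the imprinted genes was not tested, except that the fibroblast level was fitted as a covariate. In PWK/PhJ DE the calls of Mest, Zrsr1, Snrpn and Impact were then kept. That of Peg3 (268 ± 45.4 CPM in PWK/PhJ, n = 4, and 622 ± 230 CPM in C57BL/6J, n = 5, SD; -1.14 ± 0.25) was not, at -0.69 (adjusted p = 0.219, edgeR). Nor were those of Magel2, at -2.65 (adjusted p = 0.111; -2.0 ± 0.65 and 0.0477 without the covariate), and Airn, at 1.32 (adjusted p = 0.407; 2.21 ± 0.72 and 0.0464 without it, edgeR). The Magel2 difference was thus no smaller with the covariate, and its call, like that of Airn, was also lost without some single libraries. Both genes were low in DE. Magel2 had 0.0385 to 1.26 CPM in PWK/PhJ and 1.36 to 2.68 CPM in C57BL/6J, and Airn had 0.854 to 3.41 CPM and 0.0153 to 0.777 CPM.

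Inpp5f averaged 102 ± 13.2 CPM in PWK/PhJ EpiSC (n = 3) and 87.4 ± 8.77 CPM in CAST/EiJ EpiSC (n = 2), against 61.4 ± 7.22 CPM in C57BL/6J EpiSC (n = 5, SD). The PWK/PhJ difference of 0.74 ± 0.12 (adjusted p = 0.000335, edgeR) was kept under each alternative run, and neither strain overlapped with C57BL/6J. Of the 4 Y-linked genes, 1 was called higher in PWK/PhJ EpiSC than in C57BL/6J EpiSC (Eif2s3y, 1.16). PWK/PhJ in EpiSC had 11 calls, against 5 with the Y-linked covariate, 6 with no filter on low counts and 6 with the fibroblast covariate. The cause of these losses was not tested. Several calls of PWK/PhJ in EpiSC were lost with the fibroblast covariate. With that covariate the Zim1 difference was 0.63 (adjusted p = 0.166; 1.49 ± 0.42 without it), the Peg13 difference 0.62 (0.153; 1.64 ± 0.56) and the Igf2r difference 0.32 (0.335; 0.64 ± 0.22, edgeR). The Grb10 difference of PWK/PhJ in EpiSC, -1.14 ± 0.32, was -0.54 with it (adjusted p = 0.145, edgeR). Of the 15 fibroblast markers, 0 passed in PWK/PhJ EpiSC, and their median difference was 1.27.

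**Figure D3:**
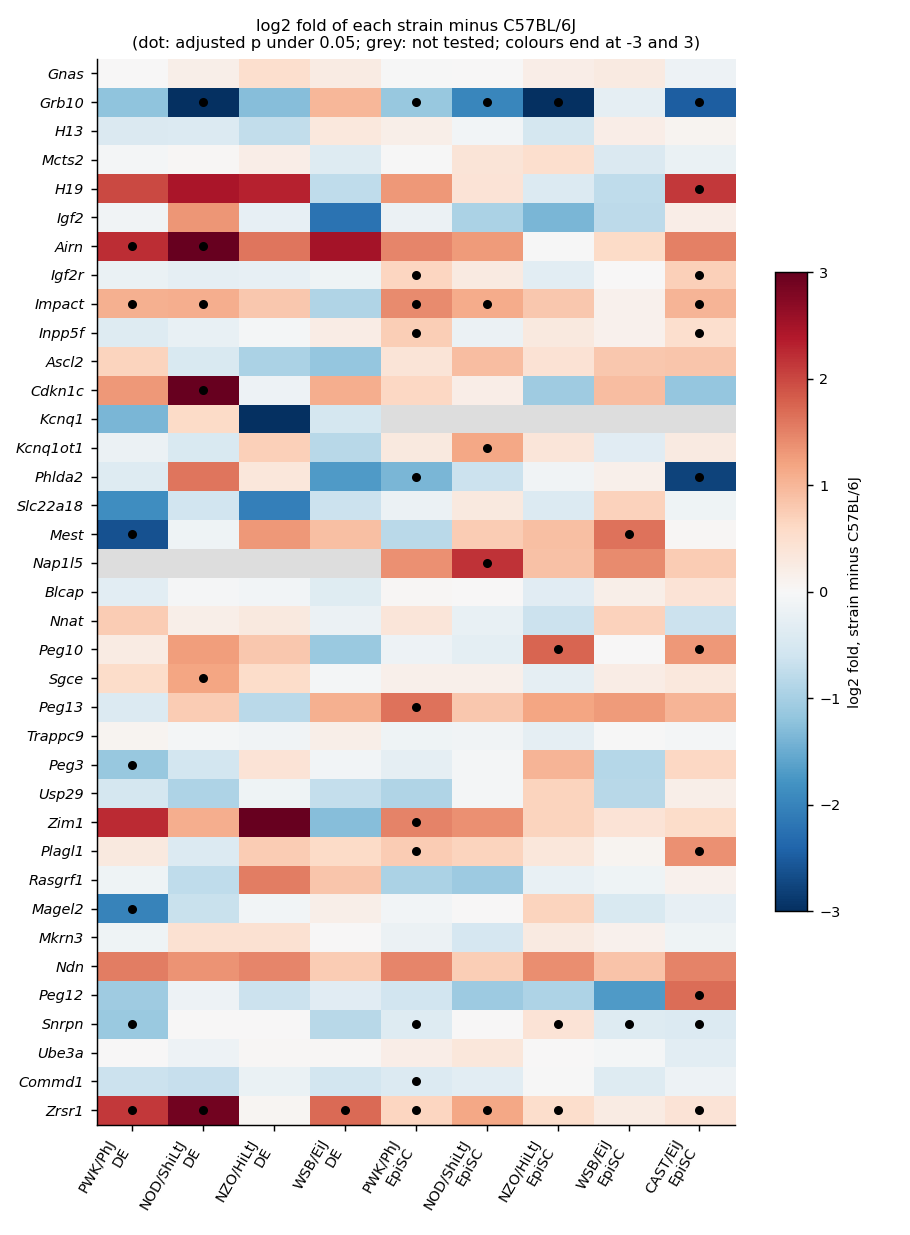
Fitted log2 fold of each strain minus C57BL/6J (colour, ending at -3 and 3) for the 37 imprinted genes, ordered by locus, in DE (first 4 columns) and EpiSC (last 5), with a dot where the adjusted p is under 0.05 and grey where a gene was not tested. Zrsr1 carries a dot in 7 of the 9 columns and Grb10 in 5.

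A line's level of an imprinted gene in EpiSC went with its level in DE for some genes. Over the 16 lines with both libraries, 5 of 35 tested genes passed a two-sided permutation test of Pearson's r with adjustment over all genes, beside 10.9% of all genes. The median r was 0.37 for the imprinted genes and 0.21 for all genes; over deviations from strain means, which use 14 lines, the medians were 0.11 and 0.04. Mest had r = 0.81 (rho = 0.77; permutation p = 0.00014, adjusted 0.00428; 0.00072 for rho, adjusted 0.0249), and r = 0.71 without the 2 lines farthest from the median. Over deviations from strain means it had 0.6. It passed without any single line. Snrpn had r = 0.72 (rho = 0.79; permutation p = 0.00184, adjusted 0.0226; 0.00049 for rho, adjusted 0.0199; r = 0.62 without the 2 farthest lines), but 0.27 over deviations from strain means, and lost its call without line 55 or line AC698 (adjusted p = 0.0515 and 0.0637, permutation). Zrsr1 had r = 0.70 (rho = 0.74; permutation p = 0.00242, adjusted 0.0273; 0.0016 for rho, adjusted 0.038; r = 0.67 without the 2 farthest), but -0.30 over deviations from strain means. The call was lost without line 44 (adjusted p = 0.0594), AC576 (0.0788), AC595 (0.065) or AC698 (0.0506, permutation).

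Ndn had r = 0.81 (rho = 0.81; permutation p = 0.00344, adjusted 0.0353; 0.00027 for rho, adjusted 0.0145; r = 0.70 without the 2 farthest lines). The extreme was C57BL/6J line 1, with 3.49 CPM in DE and 0.808 CPM in EpiSC, and without it r was 0.62 (adjusted p = 0.182, permutation); the call was also lost without line 55 (adjusted p = 0.0723) and line AC627 (0.0503, permutation). C57BL/6J line 5-1 was likewise low for Ndn in DE (4.08 CPM) but had 10.1 CPM in EpiSC, and the other 15 DE libraries had 22.7 to 97.4 CPM. H19 had r = 0.68 (rho = 0.64; permutation p = 0.00413, adjusted 0.0405; 0.00921 for rho, adjusted 0.1; r = 0.53 without the 2 farthest), and the call was lost without any of 12 single lines, with an adjusted p of up to 0.102 (permutation). The rho of H19 did not pass adjustment. Over deviations from strain means r was 0.64 for Ndn and 0.63 for H19. The permutations shuffled lines over all strains, so a pattern shared by the lines of a strain counts toward each of these calls, as it does for the relation to fibroblast markers given next. Grb10 did not pass over the lines as they stand (r = 0.48, adjusted p = 0.245, permutation), although over deviations from strain means r was 0.87, given as a description.

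**Figure D4:**
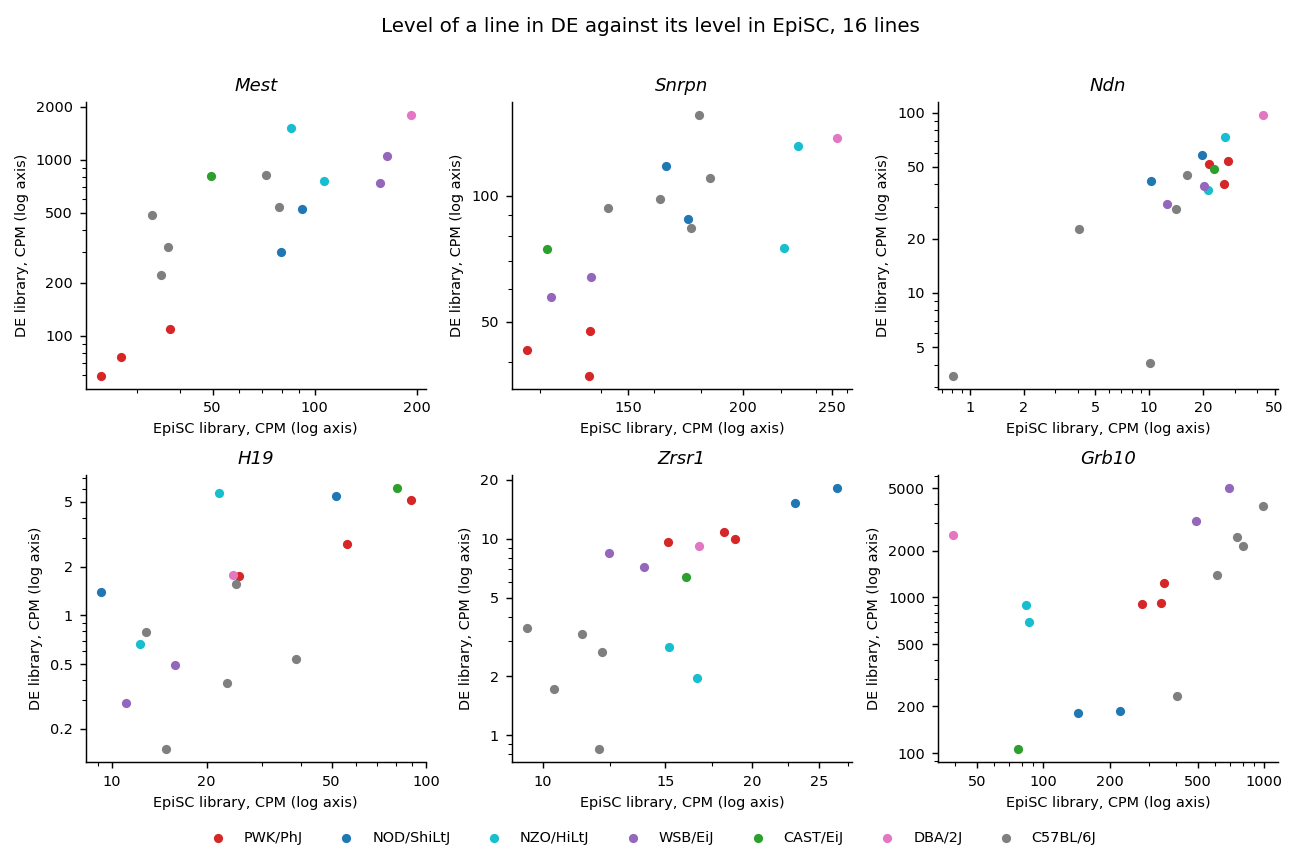
Level of each line in its DE library against its level in its EpiSC library (CPM, both axes log) for Mest, Snrpn, Ndn, H19, Zrsr1 and Grb10, 1 point per line and 16 lines, coloured by strain. Mest and Ndn have the highest r of those shown (0.81 for each), and for Mest the PWK/PhJ lines lie at the low end of both axes.

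Because EpiSC grow on fibroblasts, each gene's level was also set against the mean log2 CPM of the 15 fibroblast markers over the 17 libraries of a cell type. This relation was chosen with earlier results of these data known, so its p-values are not those of a comparison fixed in advance. In EpiSC 5 of 36 imprinted genes passed a two-sided permutation test with adjustment over all genes, all with positive r, beside 11.4% of all genes, of which 1468 had positive and 571 negative r. Airn had r = 0.95 (rho = 0.92; permutation p = 1e-05 for each, the smallest that 100000 resamples can give; adjusted 0.000362, for rho 0.000433; r = 0.86 without the 2 farthest libraries). Zim1, a maternally expressed zinc finger gene next to Peg3, had r = 0.87 (rho = 0.83; permutation p = 2e-05, adjusted 0.000603; 5e-05 for rho, adjusted 0.00143; r = 0.76 without the 2 farthest). Igf2r had r = 0.69 (rho = 0.83; permutation p = 0.00095, adjusted 0.0137; 5e-05 for rho, adjusted 0.00143; r = 0.90 without the 2 farthest). These 3 calls were kept without any single library, and over deviations from strain means r was 0.95 for Airn, 0.90 for Zim1 and 0.66 for Igf2r.

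Peg13 and Ndn rested on 1 library. Peg13 had r = 0.76 (rho = 0.75; permutation p = 0.00048, adjusted 0.00818; 0.00082 for rho, adjusted 0.0125; r = 0.53 without the 2 farthest), and without C57BL/6J line 1 it had 0.61 (adjusted p = 0.0903, permutation). Ndn had r = 0.83 (rho = 0.52; permutation p = 0.00064, adjusted 0.0102; 0.0363 for rho, adjusted 0.164; r = 0.33 without the 2 farthest), and without line 1 it had 0.57 (adjusted p = 0.119, permutation), and its rho did not pass adjustment. Over deviations from strain means, line 1 included, r was 0.93 for Peg13 and 0.87 for Ndn. C57BL/6J line 1 had the lowest fibroblast level of the EpiSC libraries (148.1 CPM summed), with Airn at 0 and Ndn at 0.808 CPM, and C57BL/6J line 4 the next lowest (655 CPM), with Airn at 0.368 CPM and Ndn at 4.05 CPM. At the other end, NOD/ShiLtJ line AC595 had 4821 CPM of fibroblast markers and 4.59 CPM of Airn. Snrpn, plotted beside them, had r = -0.27 (rho = -0.39; permutation p = 0.296, adjusted 0.534; 0.125 for rho, adjusted 0.337; r = -0.42 without the 2 farthest).

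In DE, 4 of 36 genes passed, beside 11.3% of all genes. Zrsr1 (r = 0.72, rho = 0.75; permutation p = 0.00117, adjusted 0.019; 0.00072 for rho, adjusted 0.0158; r = 0.60 without the 2 farthest libraries) and Cdkn1c (r = 0.64, rho = 0.63; permutation p = 0.0046, adjusted 0.0437; 0.00831 for rho, adjusted 0.0641; r = 0.49 without the 2 farthest) were positive. Peg3 (r = -0.68, rho = -0.65; permutation p = 0.00251, adjusted 0.03; 0.00533 for rho, adjusted 0.0493; r = -0.75 without the 2 farthest) and Grb10 (r = -0.66, rho = -0.65; permutation p = 0.00415, adjusted 0.0411; 0.00594 for rho, adjusted 0.0526; r = -0.52 without the 2 farthest) were negative. The rho of Cdkn1c and that of Grb10 did not pass adjustment. Over deviations from strain means r was 0.64 for Zrsr1, 0.23 for Cdkn1c, -0.55 for Peg3 and -0.40 for Grb10. Each of the 4 calls was lost on leaving out some 1 library: line 1 for Zrsr1 (adjusted p = 0.0678), AC576 for Cdkn1c (0.152) and Grb10 (0.0989), and line 55 for Peg3 (0.091, permutation).

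**Figure D5:**
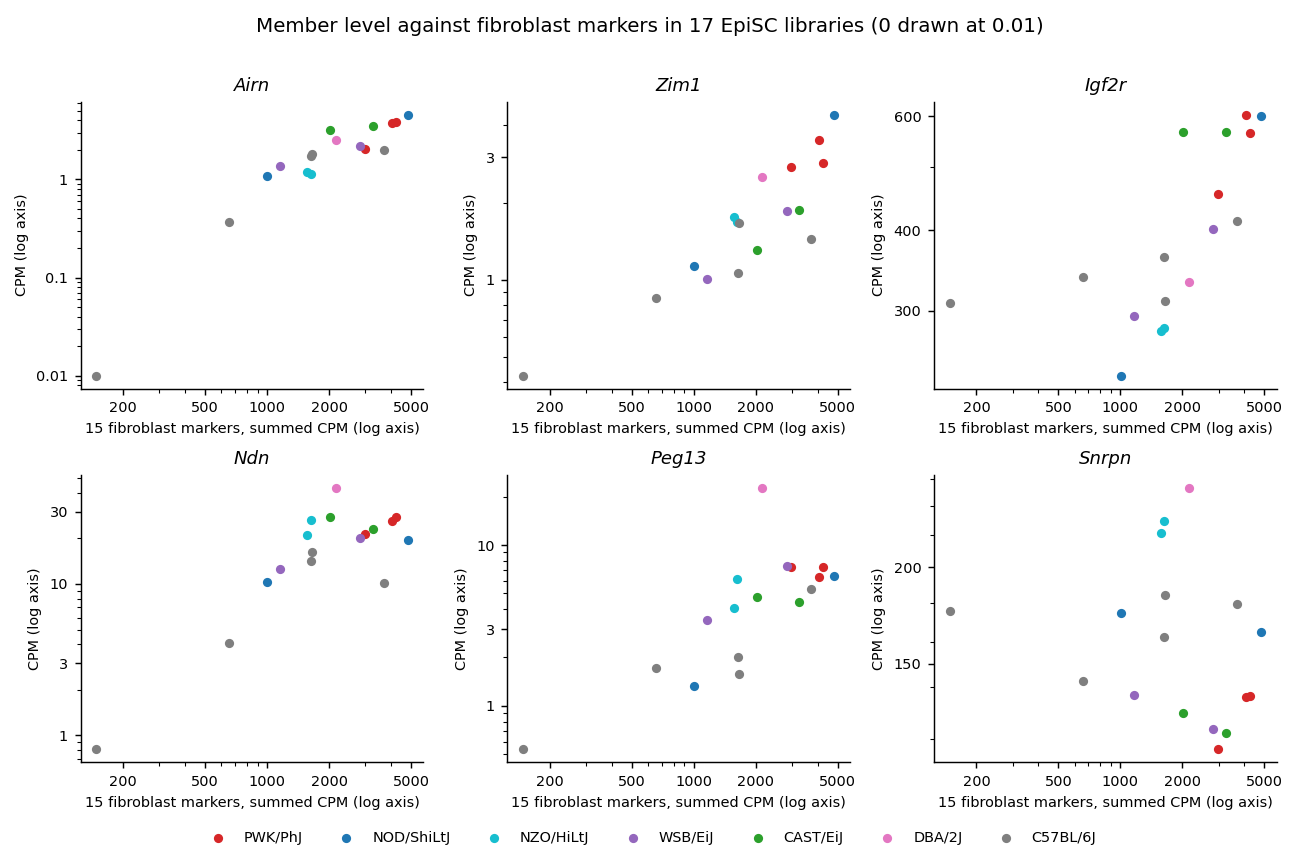
CPM (log axis, 0 drawn at 0.01) of Airn, Zim1, Igf2r, Ndn, Peg13 and, for comparison, Snrpn against the summed CPM of 15 fibroblast markers (log axis) in the 17 EpiSC libraries, coloured by strain. Airn climbs over the whole range (r = 0.95 with the mean log2 CPM of the markers), and the lone point at the left is C57BL/6J line 1.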

How the data were processed

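RNA was sequenced from EpiSC and from CXCR4-sorted DE of the same lines. Per the submitters' processing notes, the authors used STAR 2.4, HTSeq 0.6.1, DESeq2 and the mm10 assembly; for the strand setting and the annotation used in counting, the sources used here give nothing. The authors deposited raw read counts per gene, 1 table per cell type, with 53655 genes in each; depth limits precision only for the genes of low level. From these counts, edgeR 4.0.16 (R 4.3.3) gave TMM-scaled CPM and quasi-likelihood F tests with a robust fit, for genes reaching 10 counts in 3 or more libraries, with Benjamini-Hochberg adjustment over all genes tested and a threshold of 0.05. The cell type fit held strain as a term over all 34 libraries. Strain fits were made within a cell type, over its 17 libraries, and the interaction fit was limited to 5 strains, each having at least 2 lines in DE and in EpiSC. Correlations used log2 CPM (prior count 2) and 100000 permutations (numpy 2.4.6, scipy 1.17.1, statsmodels 0.14.6). The fits and permutations were tested on simulated data with 200 changed genes. Libraries of 1 line pair across cell types by origin: over 14 lines the correlation of their deviations from strain means had a median of 0.039 (0.002 to 0.178, 6 above 0.1). In a strain of 2 lines the deviations mirror each other, so both lines give the same value (0.168 for WSB/EiJ). The 14 values, like the points behind each r over deviations from strain means, are therefore not independent. Counts of each pair of libraries of a group were compared by chi-square; the lowest value per degree of freedom over all pairs was 31.5 in DE and 6.57 in EpiSC, so none were merged.

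Alternatives were RLE scaling in edgeR, DESeq2 1.42.0, a prior count of 0.5 for correlations, no filter on low counts, a block for the line, no strain term, a Y-linked or fibroblast covariate and each library left out. The genes, the lists and the relation to fibroblast markers were chosen with earlier results of these data known. Up to 10 genes per comparison were named, by size of the difference (by p for F tests) among those past the threshold whose mean log2 CPM reached 1 in a group, with neighbours at the same locus beside them. Gene positions are of GENCODE on GRCm38 and promoters of RefSeq on GRCm38.p6.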

Additional observations from a re-analysis of the deposited data

Results flagged for a closer look

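In groups of 4 or 5 libraries, 87 sets of values were examined for a library standing apart from the others, and 4 did; chance gives about 1 in 20. Slc22a18 in C57BL/6J DE was lowest in line 5-1, at 0.859 CPM, and the other 4 lines had 4.33 to 7.70 CPM; on the log2 CPM scale the gap to the nearest line was 0.734 of the whole range, as for the 3 cases that follow. Impact in PWK/PhJ DE was lowest in line AC705, at 152.6 CPM, and the other 3 lines had 169.0 to 172.1 CPM, a gap of 0.833 of the range. Kcnq1ot1 in PWK/PhJ DE was highest in the same line, at 107.2 CPM, and the other 3 had 39.7 to 44.0 CPM, a gap of 0.896 of the range. Inpp5f in C57BL/6J EpiSC was lowest in line 2, at 48.7 CPM, and the other 4 lines had 62.9 to 66.1 CPM, a gap of 0.841 of the range.

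The effect of strain differed between DE and EpiSC for Zrsr1 (adjusted p = 0.00463) and for Inpp5f (adjusted p = 0.0213), by the interaction test of edgeR. For Inpp5f the DE minus EpiSC difference, relative to that of C57BL/6J, was -1.09 in PWK/PhJ, -0.37 in NZO/HiLtJ, -0.04 in NOD/ShiLtJ and 0.10 in WSB/EiJ (log2).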

How the results depend on the processing

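Counts are of imprinted genes called. Shares over all genes were given above for the main fits, and none is given here for the alternatives. Nothing particular to the imprinted genes is therefore read from these counts. Each strain contrast rests on 2 to 4 lines of a strain, so single lines decide many calls. Leaving out 1 library or line at a time gave 29 to 32 calls between DE and EpiSC (19 to 20 with the 2-fold minimum). Between strains in DE it gave 6 to 12 for the F test, 5 to 9 for PWK/PhJ, 1 to 8 for NOD/ShiLtJ, 0 to 0 for NZO/HiLtJ and 0 to 2 for WSB/EiJ. In EpiSC it gave 9 to 18 for the F test, 5 to 14 for PWK/PhJ, 2 to 7 for NOD/ShiLtJ, 1 to 6 for NZO/HiLtJ, 0 to 4 for WSB/EiJ and 4 to 13 for CAST/EiJ. The interaction gave 1 to 4, the comparison of a line's levels 2 to 6, and the fibroblast relation 1 to 4 in DE and 4 to 6 in EpiSC.

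With no filter on low counts the calls in DE numbered 20 for the F test (8 with the filter), 13 for PWK/PhJ (7), 10 for NOD/ShiLtJ (6), 6 for NZO/HiLtJ (0) and 8 for WSB/EiJ (1). In EpiSC they numbered 6 for PWK/PhJ (11), 2 for NZO/HiLtJ (4) and 7 for CAST/EiJ (11), and for the interaction 13 (2). DESeq2 gave 15 for the F test in DE, 2 for WSB/EiJ in DE, 8 for NZO/HiLtJ in EpiSC and 6 for the interaction. The fibroblast covariate gave 5 for the F test in DE, 0 for NOD/ShiLtJ and 0 for WSB/EiJ in DE, and 6 for PWK/PhJ in EpiSC; it turned the sign of the DE minus EpiSC difference of Mcts2 (0.08) and Peg3 (-0.16). The Y-linked covariate gave 0 for WSB/EiJ in DE, and in EpiSC 5 for PWK/PhJ, 1 for NOD/ShiLtJ and 2 for NZO/HiLtJ. With the line as a replicate block, the pairing left 31 calls between DE and EpiSC, 19 with the 2-fold minimum, and gave 5 for the interaction. The cause of these shifts was not tested. Over the 13 comparisons fitted with edgeR, 2859 values under an alternative belonged to called genes: 2573 kept the call, 284 lost it and 2 lost it with the other sign. Of 8660 values of genes not called, 204 gained a call and 298 had the other sign. Between DE and EpiSC the fibroblast covariate also turned the sign of uncalled Airn (1.49), Cdkn1c (1.02), Igf2 (0.79) and Rasgrf1 (-0.31).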
